A study of Mus musculus with 10 samples.

Results

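The SLAM family is a small group of immunoglobulin-type receptors on blood cells, considered here together with the adaptor protein that several of them share. The genes were chosen by name: *Slamf1*, *Slamf6*, *Slamf7*, *Cd48*, *Cd84*, *Cd244* and *Ly9* encode receptors, and *Sh2d1a* encodes the adaptor SAP. All 8 symbols were found among the 770 gene probes of a mouse NanoString immune panel, which holds 750 endogenous genes and 20 reference genes.

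Most SLAM receptors bind a copy of themselves on a neighboring cell, so that they act between leukocytes that touch each other. *Cd48* and *Cd244* differ in that the CD48 protein, which is held in the membrane by a lipid anchor, is the ligand of CD244 (2B4). Inside the cell the receptors other than CD48 carry tyrosine motifs to which SAP, or the related adaptor EAT-2, can bind. SAP recruits the kinase Fyn. Without such adaptors the same motifs can recruit phosphatases, so that a receptor can be activating or inhibitory depending on the cell. The family is known for its roles in natural killer (NK) cell killing, in the help that T cells give to B cells and in the development of NKT cells. In tumors its members are found on T cells, NK cells, B cells, plasma cells and myeloid cells.

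The study asked how loss of Siah2, a ubiquitin ligase, in the host affects the immune environment of a melanoma. YUMMER1.7 cells, a mouse melanoma line with mutant *Braf*, without *Cdkn2a* and with many added mutations, were injected under the skin of wild-type (WT) mice or of Siah2-/- mice (Siah2 KO), so that the injected cells had the same genotype in both groups and only the host lacked Siah2. The mice were males on a C57BL/6 background, given as 5 to 7 weeks old in one place of the study and as 6 to 10 weeks old in another. RNA of 5 WT tumors, with replicate numbers 2 to 6, and 5 Siah2 KO tumors, with replicate numbers 1, 2, 3, 5 and 6, was measured. The sample labels give day 11 after injection for the collection, and the legend of the study gives day 10. YUMMER1.7 and Siah2 are named by the paper and by every sample label, and they were used here, although the design text of the series speaks of Yumm1.5 cells and Rnf5-/- mice.

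The assay counts RNA molecules individually through probes that carry fluorescent barcodes, from 100 ng of RNA per tumor. The authors deposited normalized counts, from which a background constant had been taken and which had been scaled to 20 reference genes. The scaling factor was not given and was inferred here from the steps between the low values of each tumor. It was 0.918 to 1.32 in the WT and 1.03 to 1.60 in the Siah2 KO tumors. Before this factor the counts of the 770 probes summed to between 382886 and 581608 per tumor, and 39 to 84 probes per tumor lay at the floor of 1. The panel has no probe for *Siah2*, so that the genotype could not be checked. *S100b*, the only melanocytic marker among the lists used here, was low in WT tumors, at 14.6 ± 7.96 (SD, n = 5) normalized counts, and at or close to the floor in Siah2 KO tumors, at 1.72 ± 0.559 (SD, n = 5). It was called lower, without overlap between the groups (log2 fold change −2.39 with the added 1, limma adjusted p = 0.00055), and its part in the results was not tested. The labels call the 10 samples separate tumors and name no batch, so that the p-values measure the spread between these tumors.

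All 7 receptor genes lie beside each other on mouse chromosome 1 and *Sh2d1a* on chromosome X, according to RefSeq for GRCm38.p6, in which all 8 symbols were matched, 1 of them (*Cd244*, there *Cd244a*) through a synonym. The order along chromosome 1 was *Cd244*, *Ly9*, *Slamf7*, *Cd48*, *Slamf1*, *Cd84* and *Slamf6*. Only entries typed as protein-coding were ordered, and a single other one, *Tma7-ps*, lay between *Cd48* and *Slamf1*. A promoter sequence, from 250 bases before to 50 bases after a gene start, was found in the RefSeq table for 6 of the 8 genes and not for *Ly9* and *Sh2d1a*. The promoter of *Slamf7* is shown because this gene differed most between the groups, and that of *Cd84* because it was the only one of the 6 with a match to any of 4 motifs of immune transcription factors. *Slamf7* is on the minus strand at chr1:171648950-171649249 and *Cd84* on the plus strand at chr1:171839447-171839746, both printed 5′ to 3′ along the gene with motif matches in capitals.
Slamf7: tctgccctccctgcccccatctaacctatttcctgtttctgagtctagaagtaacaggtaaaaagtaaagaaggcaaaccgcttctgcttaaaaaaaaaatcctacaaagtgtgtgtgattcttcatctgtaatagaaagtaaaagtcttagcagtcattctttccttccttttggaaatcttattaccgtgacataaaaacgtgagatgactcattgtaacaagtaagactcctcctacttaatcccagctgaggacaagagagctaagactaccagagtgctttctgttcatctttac
Cd84: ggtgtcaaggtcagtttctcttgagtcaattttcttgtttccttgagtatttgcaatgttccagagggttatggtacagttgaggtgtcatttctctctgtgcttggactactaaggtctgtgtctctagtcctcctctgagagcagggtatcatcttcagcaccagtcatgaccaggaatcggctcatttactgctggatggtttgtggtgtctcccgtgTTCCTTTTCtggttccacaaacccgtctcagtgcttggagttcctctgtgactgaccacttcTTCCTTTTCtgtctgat
The motifs, searched on both strands, were the interferon gamma activation site TTCNNNGAA, a short interferon regulatory factor (IRF) motif GAAANNGAA, the T-box motif AGGTGTGA and the RUNX motif TGTGGTT. Of all 32851 mouse promoters of the table, 8.30% held the first, 8.56% the IRF motif, 1.28% the T-box motif and 5.27% the RUNX motif. The promoter of *Cd84* held 2 IRF matches, both read as TTCCTTTTC on the gene's strand, 29 to 21 bases upstream of the start and 33 to 41 bases after it. The 300 bases of *Slamf7* held no match to these letters, and 39.0% of them were G or C, against 46.7% for *Cd84*.

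Of the 8 genes, 6 were called higher in Siah2 KO tumors at an adjusted p under 0.05 and none lower. Over all probes 31.3% were called higher. With median, quantile and positive control scaling of the tumors, 3, 2 and 1 of the 8 were called, all higher. Fewer probes were called higher under these scalings too, at 163, 153 and 60 of 770, against 241 with reference gene scaling. The share of 31.3% therefore belongs to reference gene scaling alone. *Slamf7*, a receptor of NK cells, plasma cells and activated T and myeloid cells, differed most, with a 4.50-fold higher geometric mean, and *Cd244*, a receptor of NK cells, CD8 T cells and myeloid cells, followed with a 2.06-fold difference. *Cd84*, *Ly9*, *Slamf6* and *Cd48* were each 1.50- to 1.56-fold higher. The adaptor gene *Sh2d1a* and the receptor gene *Slamf1* did not pass the test, and *Slamf1* was close to background. In these bulk tumors, a larger number of cells that express a gene and more RNA per cell cannot be told apart.

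**Figure D1:**
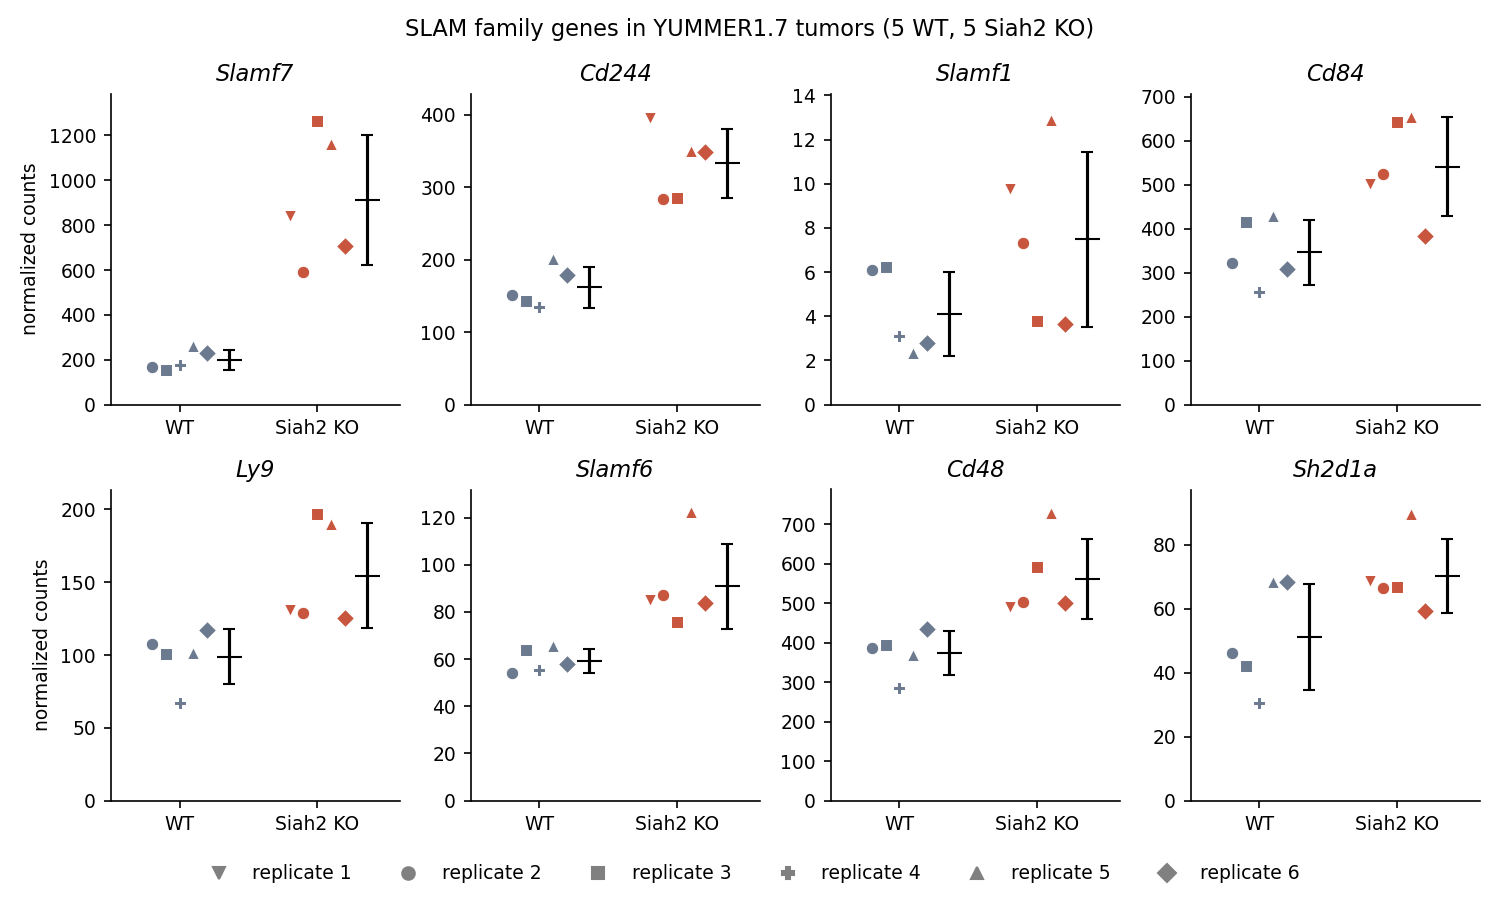
Normalized counts of the 8 SLAM family genes in 5 WT (grey) and 5 Siah2 KO (red) tumors, with a linear axis from 0 for each gene, marker shapes for the replicate numbers, and mean ± SD as bars. *Slamf7*, *Cd244*, *Ly9*, *Slamf6* and *Cd48* show no overlap between the groups, whereas *Cd84*, *Sh2d1a* and *Slamf1* do.

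Each gene was compared on log2(normalized count + 1), Siah2 KO minus WT, by limma's moderated test, two-sided, with Benjamini-Hochberg adjustment over the 770 probes, and a gene was called at an adjusted p under 0.05. Over all probes 41.0% were called, and 31.3% were called as higher in Siah2 KO tumors, against 6 of the 8 SLAM family genes. At an unadjusted p under 0.05, 7 of the 8 were higher and none was lower, where 38.3% of all probes were higher. The groups did not overlap, with Siah2 KO above WT, for 24.5% of all probes and for 5 of the 8 genes. The median log2 fold change was 0.64 over the 8 genes and 0.24 over all probes. Beside limma stands a two-sided exact permutation test over all 252 divisions of the tumors, for which 0.0079 is the smallest possible p.

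*Slamf7* encodes a self-binding receptor (CRACC) that works through EAT-2 rather than SAP. The WT tumors had 169, 155, 177, 260 and 229 normalized counts for replicates 2 to 6. The Siah2 KO tumors had 843, 591, 1265, 1161 and 709 normalized counts for replicates 1, 2, 3, 5 and 6. The lowest Siah2 KO tumor, replicate 2, was thus above the highest WT tumor, replicate 5, and Siah2 KO replicates 3 and 5 stood above the other 3. The means were 198 ± 44.5 (SD, n = 5) in WT and 914 ± 290 (SD, n = 5) in Siah2 KO tumors. The log2 fold change was 2.17 with a standard error of 0.23 (95% interval 1.65 to 2.69, limma adjusted p = 0.00018, exact permutation p = 0.0079), the 10th highest log2 fold change of the 770 probes. *Slamf7* was called under each of the 11 other ways of processing the data, with log2 fold changes from 1.83 to 2.17, and after leaving out any single tumor, with 2.04 to 2.31.

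*Cd244* and *Cd48* form the receptor and ligand pair of the family. For *Cd244* the WT tumors had 152, 143, 134, 202 and 178 normalized counts, in the same order of replicates, and the Siah2 KO tumors 396, 284, 285, 350 and 349. The Siah2 KO tumors were all above the WT tumors, and replicate 1 was the highest among them. The means were 162 ± 27.8 (SD, n = 5) in WT and 333 ± 47.8 (SD, n = 5) in Siah2 KO tumors, a log2 fold change of 1.04 with a standard error of 0.14 (95% interval 0.73 to 1.36, limma adjusted p = 0.00055, exact permutation p = 0.0079). For *Cd48*, whose product is found on most leukocytes, the WT tumors had 385, 395, 286, 368 and 436 normalized counts and the Siah2 KO tumors 489, 502, 591, 728 and 499. The groups again did not overlap, but Siah2 KO replicates 1, 2 and 6 lay closer to the highest WT tumor, replicate 6, than to the highest Siah2 KO tumor, replicate 5. The mean of *Cd48* was 374 ± 55.2 (SD, n = 5) in WT and 562 ± 102 (SD, n = 5) in Siah2 KO tumors, with a log2 fold change of 0.58, a standard error of 0.15 and a 95% interval of 0.25 to 0.91 (limma adjusted p = 0.010, exact permutation p = 0.0079). The geometric mean was thus 1.50-fold higher for the ligand gene and 2.06-fold higher for the receptor gene.

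*Cd84*, *Ly9*, *Slamf6* and *Slamf1* encode the receptors that bind their own kind and use SAP. For *Cd84*, found on T cells, B cells, macrophages, mast cells and platelets, the WT tumors had 323, 414, 255, 430 and 309 normalized counts and the Siah2 KO tumors 501, 524, 644, 654 and 384. The groups overlapped, since Siah2 KO replicate 6 lay below WT replicates 3 and 5, while the other 4 Siah2 KO tumors were above every WT tumor. The log2 fold change of *Cd84* was 0.64 with a standard error of 0.19 (95% interval 0.22 to 1.06, limma adjusted p = 0.020, exact permutation p = 0.024). For *Ly9*, a receptor of T cells and B cells, the WT tumors had 108, 101, 67.3, 101 and 118 normalized counts and the Siah2 KO tumors 131, 129, 197, 190 and 125. Here Siah2 KO replicates 3 and 5 stood apart at the top, and the other 3 lay just above the highest WT tumor. The log2 fold change of *Ly9* was 0.63 with a standard error of 0.19 (95% interval 0.21 to 1.05, limma adjusted p = 0.023, exact permutation p = 0.0079).

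For *Slamf6*, a receptor (Ly108) of T, NK and B cells, the WT tumors had 54.0, 63.7, 55.4, 65.7 and 57.7 normalized counts and the Siah2 KO tumors 85.2, 87.3, 75.8, 122 and 84.0. The WT tumors lay close together, every Siah2 KO tumor was above them, and Siah2 KO replicate 5 stood above the other 4. The means were 59.3 ± 5.15 (SD, n = 5) in WT and 90.9 ± 18.1 (SD, n = 5) in Siah2 KO tumors, with a log2 fold change of 0.59 and a standard error of 0.13 (95% interval 0.30 to 0.88, limma adjusted p = 0.0050, exact permutation p = 0.0079). Without Siah2 KO replicate 5 the log2 fold change of *Slamf6* was 0.48 (limma adjusted p = 0.0040).

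*Slamf1*, the gene of the founding member (CD150), gave 6.10, 6.21, 3.10, 2.33 and 2.79 normalized counts in the WT tumors and 9.77, 7.32, 3.78, 12.9 and 3.65 in the Siah2 KO tumors. The groups overlapped, and the values were low: before the reference gene factor *Slamf1* was above every negative control probe in only 4 of the 10 tumors, whereas each of the other 7 genes was above them in all 10. The log2 fold change was 0.68 with a standard error of 0.36 and a 95% interval from −0.12 to 1.47 (limma adjusted p = 0.16, exact permutation p = 0.13). No difference in *Slamf1* was detectable at this level of signal.

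*Sh2d1a*, the gene of the adaptor SAP of T and NK cells, had 46.3, 42.3, 30.6, 68.3 and 68.3 normalized counts in the WT tumors and 68.6, 66.5, 66.9, 89.7 and 59.3 in the Siah2 KO tumors. The WT tumors fell into 3 low and 2 high ones, and replicates 5 and 6, the high ones, were at the level of most Siah2 KO tumors. Only Siah2 KO replicates 1 and 5 were above all WT tumors. The means were 51.2 ± 16.7 (SD, n = 5) in WT and 70.2 ± 11.5 (SD, n = 5) in Siah2 KO tumors. The log2 fold change was 0.50 with a standard error of 0.22 and a 95% interval from 0.0049 to 0.99, which did not pass the adjustment (limma unadjusted p = 0.048, adjusted p = 0.097, exact permutation p = 0.10).

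Within each group the same tumors tended to be high or low for several SLAM family genes. Of the Siah2 KO tumors, replicate 5 was the highest for 5 of the 8 genes and replicate 6 the lowest for 4. *Slamf7* and *Ly9* were instead highest in Siah2 KO replicate 3, and *Cd244* in replicate 1. Of the WT tumors, replicate 4 was the lowest for 5 genes, and replicates 5 and 6 were the highest for 4 and 3 genes.

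Of the 6 calls, 5 depended on how the tumors were scaled. *Slamf7*, *Cd244* and *Slamf6* were still called when every tumor was scaled to the same median, whereas *Cd48* (log2 fold change 0.32, limma adjusted p = 0.055), *Cd84* (0.38, adjusted p = 0.059) and *Ly9* (0.37, adjusted p = 0.080) were not. After quantile normalization the call of *Slamf6* was lost as well (0.29, limma adjusted p = 0.062). When the reference gene factor was replaced by scaling to positive control probes, *Slamf7* alone was called (2.01, limma adjusted p = 8.8e-05) and *Cd244* was not (0.88, adjusted p = 0.10). All 8 log2 fold changes were above 0 under each of these scalings, while the median over all probes moved from 0.24 to −0.0074 with median scaling, −0.040 with quantile normalization and 0.082 with positive control scaling. Single tumors also decided 2 calls, as the limma adjusted p was 0.0503 for *Cd84* and 0.055 for *Ly9* without Siah2 KO replicate 3, and 0.051 for *Ly9* without Siah2 KO replicate 5.

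**Figure D2:**
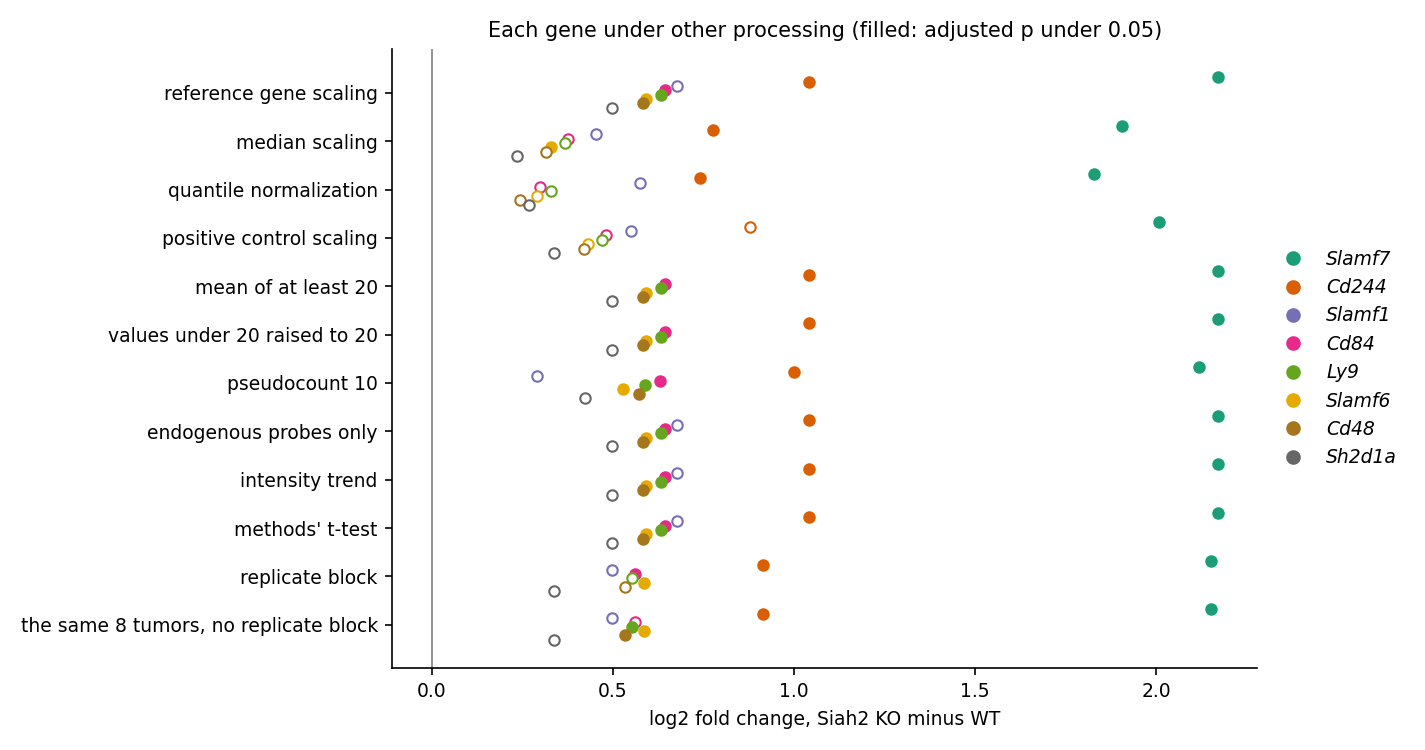
Log2 fold change (Siah2 KO minus WT, horizontal axis) of each SLAM family gene under the reference gene scaling and 11 other settings (rows), as filled points where the adjusted p was under 0.05. *Slamf7* stays filled in every row between 1.83 and 2.17, *Cd244* is open with positive control scaling alone, and the other genes sit between 0.24 and 0.68.

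Because genes of several leukocytes were also higher in Siah2 KO tumors, the SLAM family genes were set against them. The markers of leukocytes in general were called higher for 6 of 7 genes, with *Itgb2*, *Cd53*, *Itgal* and *Ptprc* (CD45) at log2 fold changes of 1.16, 1.10, 0.85 and 0.78. Their summed level was 4520 to 5737 normalized counts in WT and 6907 to 10377 in Siah2 KO tumors. T cell markers were called higher for 3 of 7 genes (*Cd3g* 0.93, *Cd3e* 0.80, *Cd3d* 0.71), with sums of 490 to 618 in WT and 620 to 1198 in Siah2 KO tumors. The other 4 were not called, with *Cd28* at 0.70, *Cd247* at 0.63, *Cd5* at −0.019 and *Cd6* at −0.23. Over all probes 31.3% were called higher. NK cell markers were called higher for 5 of 6 genes, among them the receptor genes *Klrc1* (1.49), *Klrb1c* (1.17), *Klra7* (0.78) and *Klrd1* (0.71), with sums of 684 to 929 and 1259 to 1814. Both CD8 T cell genes were higher (*Cd8b1* 1.76, *Cd8a* 1.13), with sums of 42.0 to 87.8 and 119 to 200. Of 8 macrophage markers 3 were higher (*Msr1* 0.92, *Cd68* 0.87, *Fcgr1* 0.72) and *Mrc1* was lower (−0.89), with sums of 13057 to 15482 and 14723 to 21817.

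The other lists moved less with the SLAM family genes. Of the B cell markers 6 of 7 were not called, and 4 of the 7, the defining markers *Ms4a1* and *Cd79a* among them, had means under 5 normalized counts. None of 4 plasma cell genes was called, and the plasma cell marker *Tnfrsf17* was near the floor at 1.73 ± 0.892 (SD, n = 5) in WT and 1.80 ± 1.31 (SD, n = 5) in Siah2 KO tumors. Of the other myeloid markers, 1 of 4 measured dendritic cell genes (*Itgax* 0.86) and 1 of 5 neutrophil genes (*Csf3r* 0.95) were higher, 1 of 5 mast cell genes was lower (*Ms4a2* −0.87), and neither of 2 platelet genes was called. Fibroblast markers were lower for 4 of 4 genes (*Fap* −1.97, *Pdgfrb* −0.996, *Col3a1* −0.74, *Col1a1* −0.41), and of 6 endothelial genes 1 was higher (*Pecam1* 0.88) and 2 were lower (*Vwf* −0.79, *Cdh5* −0.45). Of the 20 reference genes 2 were called higher (*G6pdx* 0.25, *Hprt* 0.24) and 3 lower (*Gusb* −0.31, *Tubb5* −0.26, *Oaz1* −0.19), with a median log2 fold change of 0.0089.

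The median of a marker list on the log2 scale was then subtracted from every gene of the same tumor, and the same test was run on these relative values. Relative to the 7 leukocyte genes, whose median was 0.52 higher in Siah2 KO tumors (exact permutation p = 0.024), 2 of the 8 SLAM family genes were called, both higher, where 10.4% of all probes were called higher and 28.4% lower. The median relative difference was 0.11 over the 8 genes and −0.29 over all probes. *Slamf7* differed by 1.65 with a standard error of 0.16 (95% interval 1.30 to 1.995, limma adjusted p = 9.1e-05). Its relative value, a difference between probes with no meaning as a level, was −1.95 to −1.53 in WT and −0.40 to 0.41 in Siah2 KO tumors, with no overlap. *Cd244* differed by 0.52 with a standard error of 0.16 (95% interval 0.17 to 0.86, limma adjusted p = 0.024, exact permutation p = 0.0079), and the groups were only just apart, with WT tumors up to −1.89 and Siah2 KO tumors from −1.83. The call of *Cd244* was lost without WT replicate 3, WT replicate 4 or Siah2 KO replicate 1 (limma adjusted p = 0.057, 0.060 and 0.063). The other 6 genes lay between −0.026 (*Sh2d1a*) and 0.15 (*Slamf1*), with adjusted p from 0.56 to 0.91. For *Cd48* the relative difference was 0.059 with a 95% interval of −0.27 to 0.39, and for *Slamf6* it was 0.069 with −0.23 to 0.36.

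Relative to the 7 T cell genes, whose median was 0.79 higher, *Slamf7* was the only one of the 8 genes called, where 3.77% of all probes were called higher and 30.6% lower. It differed by 1.38 with a standard error of 0.30 (95% interval 0.75 to 2.01, limma adjusted p = 0.0026). *Cd244* differed by 0.25 with a 95% interval of −0.34 to 0.85 (adjusted p = 0.50), and the other 6 genes by −0.29 to −0.11. Relative to the 6 NK cell genes, a scale added after the data were seen, *Slamf7* was again the only gene called (1.50, limma adjusted p = 0.00032), where 6.10% of all probes were called higher and 39.7% lower, and *Cd244* differed by 0.37 (adjusted p = 0.097, exact permutation p = 0.056). Relative to the 8 macrophage genes, likewise added, *Slamf7* (1.85, limma adjusted p = 0.00015) and *Cd244* (0.72, adjusted p = 0.011) were called, against 17.0% of all probes called higher and 17.8% lower. *Slamf7* was thus higher in Siah2 KO tumors on all 5 scales, and *Cd244* was called on 3 of them.

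**Figure D3:**
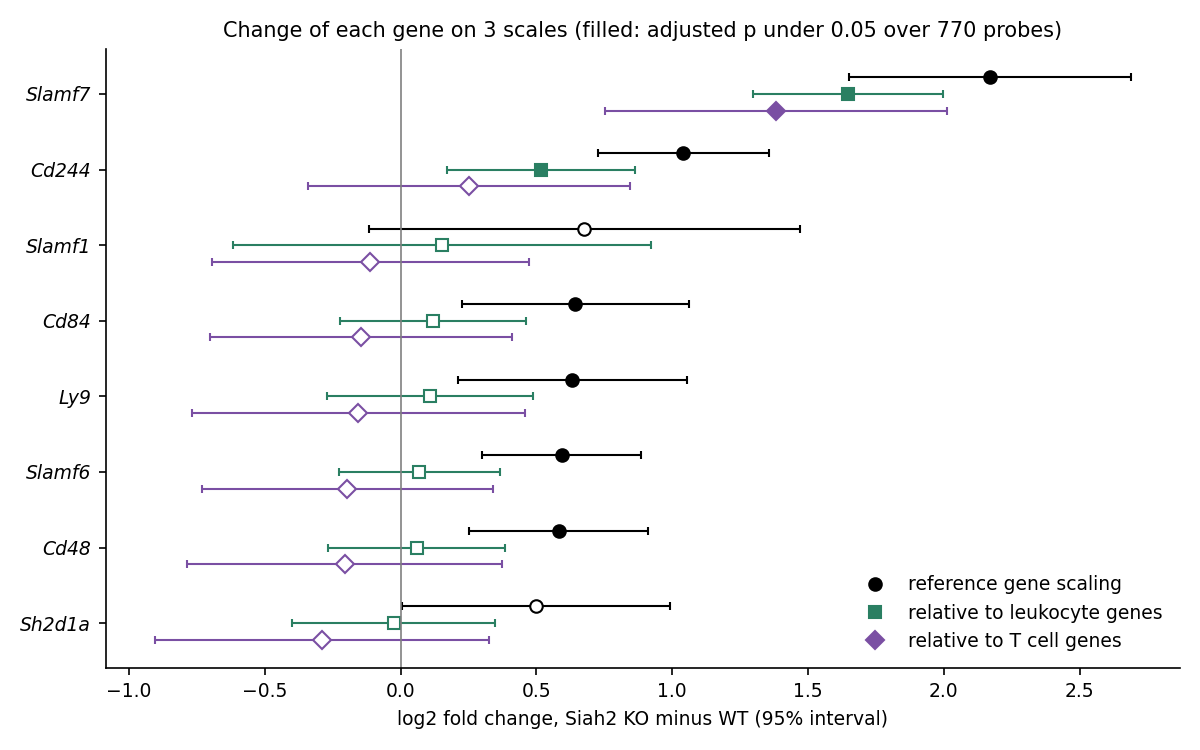
Log2 fold change of each SLAM family gene (Siah2 KO minus WT, horizontal axis, with 95% intervals) on reference gene scaling and relative to the leukocyte or T cell genes of the same tumor, filled where the adjusted p was under 0.05. *Slamf7* is filled on all 3 scales at 2.17, 1.65 and 1.38, *Cd244* on 2 of them, and the intervals of the other genes include 0 on both relative scales.

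The genes were also compared with each other inside each tumor, by the log2 ratio of a pair, which does not depend on the scaling of the tumor apart from the added 1. The 28 pairs were tested by two-sided exact permutation, with p adjusted over the 28. The ratio changed between the groups in 6 pairs, all of them *Slamf7* against another gene, and in each the groups did not overlap (exact permutation p = 0.0079, adjusted p = 0.037). The log2 ratio of *Slamf7* gained 1.13 on *Cd244*, 1.53 on *Cd84*, 1.54 on *Ly9*, 1.58 on *Slamf6*, 1.59 on *Cd48* and 1.67 on *Sh2d1a*. Against its chromosomal neighbors this meant a log2 ratio to *Cd48* of −0.93 ± 0.34 (SD, n = 5) in WT and 0.66 ± 0.32 (SD, n = 5) in Siah2 KO tumors, and to *Ly9* of 0.99 ± 0.37 (SD, n = 5) and 2.53 ± 0.20 (SD, n = 5). The remaining pair with *Slamf7*, that with the near-background *Slamf1*, missed the adjusted threshold (exact permutation p = 0.016, adjusted p = 0.063).

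The receptor *Cd244* and its ligand *Cd48* differed in their change by 0.46 on the log2 scale (exact permutation p = 0.032, adjusted p = 0.089), which did not pass. The same p were found for *Cd244* against *Slamf6*, by 0.45, and against *Sh2d1a*, by 0.54. Among *Cd48*, *Cd84*, *Ly9*, *Slamf6* and *Sh2d1a* the differences in change were between 0.0099 and 0.15 in size, and the smallest exact permutation p was 0.46. A pair that missed the threshold is not thereby shown to have changed alike.

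**Figure D4:**
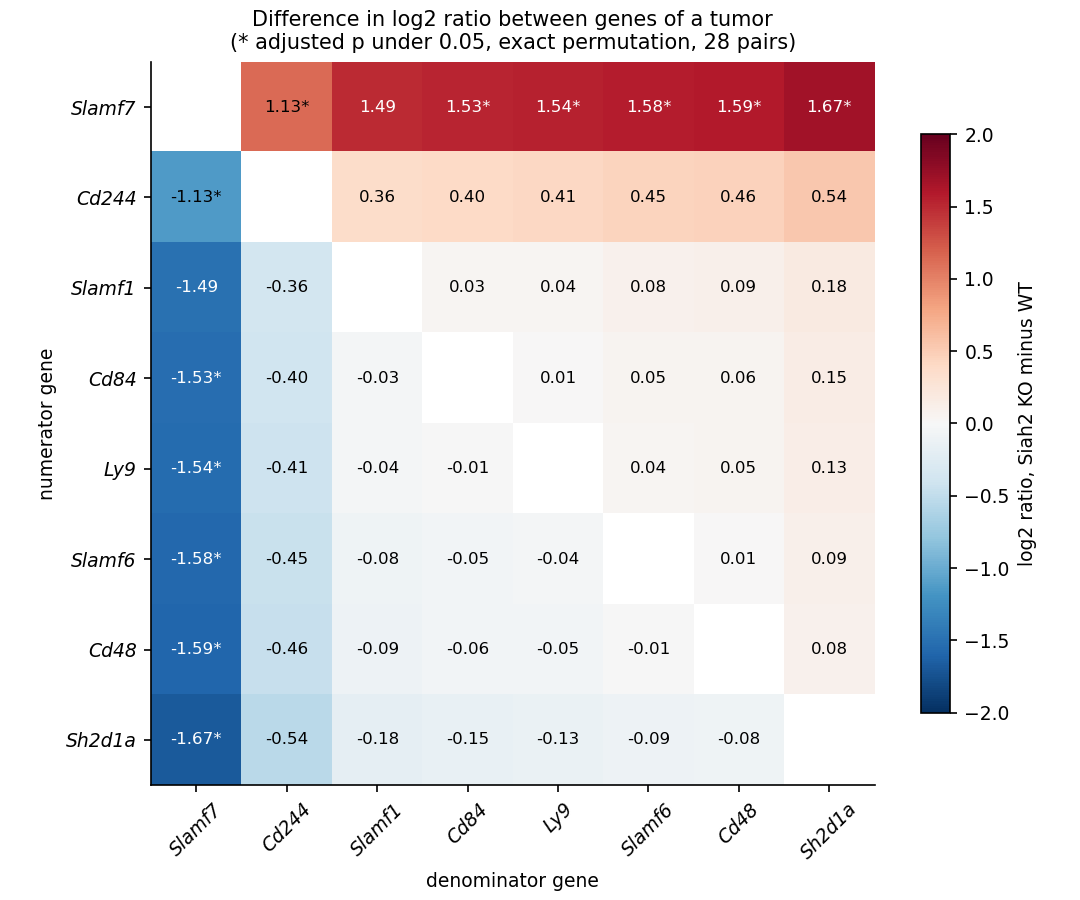
Difference between Siah2 KO and WT tumors in the log2 ratio of the gene in the row over the gene in the column, as numbers and colors, with an asterisk where the exact permutation p adjusted over the 28 pairs was under 0.05. The marked cells are all in the row and column of *Slamf7*, at 1.13 to 1.67 in size.

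The genes most like each member over the 10 tumors were sought by the root mean square difference of log2 values centered on each gene's mean, among 601 other genes whose mean was 20 normalized counts or more. This measure includes the difference between the groups, so that it finds genes with the same size of change. *Cd48* and *Ly9* were nearest to each other (0.12), where the spread of *Ly9* itself was 0.42 and that of *Cd48* was 0.36. Next to *Cd48* came *H2-Ab1* (0.13), an MHC class II gene, and next to *Ly9* came *Cyfip2* (0.15). *Slamf6* was most like the kinase genes *Ikbke* (0.12) and *Lyn* (0.14), and *Cd84* most like the T cell kinase gene *Lck* (0.15) and the complement gene *C1ra* (0.16).

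The 2 genes that changed most had other neighbors. *Slamf7* was most like *Fpr2* (0.20), a formyl peptide receptor of myeloid cells, and *Cd274* (0.24), the gene of the checkpoint ligand PD-L1, against a spread of 1.14 of its own. *Cd244* was most like *Cd3g* (0.19), of the T cell receptor complex, and *Fcer1g* (0.20), the signaling chain of several Fc and NK cell receptors, with a spread of 0.56 of its own. *Sh2d1a* had the loosest match relative to its own spread of 0.42, with *H2-D1* and *Cfb* both at 0.21.

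Genes that act with the SLAM receptors were taken as a list of 17, of which 7 were called higher, none lower and 10 were not called, with a median log2 fold change of 0.52, beside the 31.3% of all probes called higher and their median of 0.24. Among the adaptors, *Sh2d1b1*, the gene of EAT-2, had 51.0 ± 12.9 (SD, n = 5) normalized counts in WT and 82.3 ± 29.1 (SD, n = 5) in Siah2 KO tumors (log2 fold change 0.65, limma adjusted p = 0.066). *Fyn*, the kinase that SAP recruits, was higher by 0.30 (limma adjusted p = 0.019), without overlap between the groups. Other kinases called higher were *Lck* (0.69), *Lyn* (0.62), *Zap70* (0.58) and *Syk* (0.52). *Inpp5d*, the gene of the phosphatase SHIP-1 that SLAM receptors can recruit, had a log2 fold change of 0.25 (limma adjusted p = 0.33), and *Cd2*, a relative of the family that binds CD48 in mice, one of 0.72 (adjusted p = 0.21).

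Genes of the follicular helper T cells (Tfh) and NKT cells, whose function or development needs SAP, formed a list of 10. Of these 3 were called higher, none lower and 7 were not called, with a median log2 fold change of 0.43. This share was near the 31.3% of all probes called higher. The genes called were *Pdcd1* (PD-1, 1.37), *Icos* (0.77) and *Bcl6* (0.50). Other activated T cells express the first 2 too, and which cells the RNA of any of the 3 came from was not tested. The markers *Cxcr5* and *Il21* were near the floor in both groups, *Cxcr5* at 1.48 ± 0.555 (SD, n = 5) in WT and 1.30 ± 0.241 (SD, n = 5) in Siah2 KO tumors, and *Il4* was at 5.89 ± 3.83 (SD, n = 5) and 3.03 ± 2.35 (SD, n = 5). *Cd1d1*, a gene of CD1d, which presents lipids to NKT cells, had a log2 fold change of 0.46 (limma adjusted p = 0.24). *Cd1d2* had one of 1.53 at low counts (limma adjusted p = 0.066).

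Most leukocyte and NK cell markers, and 3 of 7 T cell markers, were called higher together with the SLAM family genes. The part of these markers in the results was examined only through the relative scales. Which cells the RNA of *Slamf7* or *Cd244* came from was not tested, as several kinds of leukocytes express both.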

How the data were processed

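NanoString nCounter data of 5 WT and 5 Siah2 KO YUMMER1.7 tumors, grouped by the sample titles, were used. The signal that the authors deposited is a normalized count per probe. Per the methods, nSolver was run with image quality control, samples whose positive controls stood out were dropped, and each sample was scaled by the geometric mean of 20 reference genes. The low values showed that a background constant had been subtracted and that lower values had been set to 1, which the paper does not name. Because of this, whole counts could not be recovered and no count model was used. A subtracted background lowers small values most, and the reference gene factor moves all genes of a tumor together. Each value is from 1 hybridization, and the number of tumors limits the precision.

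From the deposited values log2(value + 1) was computed for 770 probes, and Siah2 KO was compared with WT by a two-sided moderated test (limma 3.58.1 under R 4.3.3, functions lmFit and eBayes) with Benjamini-Hochberg adjustment. Single values were also tested by exact permutation over 252 divisions. For relative values, the median log2 value of a marker list was subtracted in each tumor. The 14 control probes were left out of the tests. The genes named were the SLAM family, the called members of each of 17 other gene lists (up to 4 with the largest change) with their defining markers, and the 2 genes most like each member. The genes *Zap70*, *Syk*, *Fyn*, *Sh2d1b1*, *Inpp5d*, *Cd2*, *Cd1d1*, *Cd1d2*, *Cd28*, *Cd247*, *Cd5* and *Cd6* were named beyond this rule after their values were seen. Some genes of the lists are counted but not reported by name here. The members and lists were chosen with earlier results of these data known.

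As alternatives, tumors were scaled to equal medians, to equal quantiles or to the 4 brightest positive control probes, genes with a mean under 20 were dropped, values under 20 were raised to 20, the pseudocount was set to 10, and the reference probes were left out. Further alternatives were an intensity trend, the methods' t-test, the replicate number as a block, the same 8 tumors without it, and each tumor left out in turn. The scripts were tested on simulated data. Figures were drawn in matplotlib 3.10.9 (Python 3.11.15). The study's other experiments were not analysed here.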

Additional observations from a re-analysis of the deposited data

Results flagged for a closer look

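Of the 16 groups of 5 tumors (8 SLAM family genes in WT and in Siah2 KO tumors), 1 held a tumor far from the others. *Slamf6* had 122 normalized counts in Siah2 KO replicate 5, while the other 4 Siah2 KO tumors had between 75.8 and 87.3. Dixon's rule marks about 1 in 20 groups by chance. Siah2 KO replicate 5 was also the highest Siah2 KO tumor for *Slamf1*, *Cd48*, *Cd84* and *Sh2d1a*, and its inferred reference gene factor was 1.48.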

How the results depend on the processing

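The number of probes called was 316, with 241 higher and 75 lower. It was 315 (163 higher, 152 lower) with median scaling, 334 (153 higher, 181 lower) with quantile normalization and 95 (60 higher, 35 lower) with positive control scaling. Of the 8 SLAM family genes, 6 were called as deposited, 3 with median scaling, 2 with quantile normalization and 1 with positive control scaling. Leaving out each tumor in turn gave 268 to 334 probes, 4 to 6 SLAM family genes, 1 to 2 of them relative to leukocytes, 1 to 1 relative to T cells, and 6 to 7 gene pairs. Relative to leukocytes, 1 gene in place of 2 was called with the replicate block, 1 with the same 8 tumors without it, and 1 with the NK cell list as the base, which was chosen after seeing the data. Replicate numbers 2, 3, 5 and 6 occur in both groups. The correlations of the deviations of same-numbered tumors were 0.035, 0.050, 0.17 and 0.35. Differently numbered tumors were not compared in this way, so these values cannot show whether the numbers mark pairs. No pairing is stated, and the numbers were not taken as pairs. With the replicate block 235 probes were called, against 232 in those 8 tumors without it, and *Cd48* (0.53, limma adjusted p = 0.060), *Ly9* (0.55, 0.091) and *Cd244* relative to leukocytes (0.43, 0.072) were not called. In those tumors without the block *Cd84* (0.56, 0.074) and *Cd244* relative to leukocytes (0.43, 0.13) were not called. There 0 pairs were called, as the smallest possible exact permutation p of 0.0286 had an adjusted p of 0.11 over the pairs. Values near 0 changed sign. Relative to leukocytes, *Sh2d1a* (−0.026) was at 0.15 with quantile normalization and at 0.011, 0.078 and 0.0016 without WT replicate 5, WT replicate 6 and Siah2 KO replicate 3, in a range from −0.16 to 0.078 over single tumors left out. *Slamf1* (0.15) was at −0.23 with a pseudocount of 10 and at −0.063 without WT replicate 5 (range −0.063 to 0.34), and *Cd48* (0.059) at −0.0031 and −0.025 without WT replicates 4 and 5 (range −0.025 to 0.12). Relative to T cells, *Slamf1* (−0.11) was at 0.072 with quantile normalization and at 0.032 and 0.00040 without WT replicates 2 and 3 (range −0.28 to 0.032). The causes were not tested. With values under 20 raised to 20, or a minimum mean of 20, *Slamf1* had no value.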
